A study of Bos taurus with 15 samples.

Results

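A stretch of chromosome 2 from 124.7 to 124.85 Mb (UMD3.1 coordinates) was examined in 9 liver and 6 mammary gland methylomes of Holstein cattle. It was chosen because 2 cytosines in it, 12971 bp apart at 124.768 and 124.781 Mb, had moved in opposite directions in the liver of heat stressed calves. The window was thus selected on the liver levels of IUHT and IUCL calves, so every difference between the liver groups, the calls of the position models included, is given as a description and supports nothing. The window held 2936 CpG positions read in at least 1 animal. Summed over animals these made 11506 of the 67744292 positions in the 15 methylomes. Of the 2936 positions, 1402 were read in a calf, 2592 in a heifer, 1058 in both, 47 in all 15 animals and 780 in 1 animal only.

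The calves and heifers were exposed in utero during the last 6 to 7 weeks of gestation, when their dams had shade alone (in utero heat stressed, IUHT) or shade with fans and soakers (in utero cooled, IUCL). The liver methylomes are those of 4 IUHT bull calves (IUHT-B) and 5 IUCL bull calves (IUCL-B), sampled at birth. The mammary methylomes, from biopsies on day 21 of the first lactation, are those of 3 IUHT heifers (IUHT-H) and 3 IUCL heifers (IUCL-H), which had been managed alike since birth. Both tissues were whole, so each level is a mixture over cell types, and tissue goes together with sex, age and library composition in this design. The labels name each sample as a separate animal, with the calf numbers 2 to 5 used in both treatment groups. Permutation p-values measure the spread between animals, while the q values of the logistic regressions rest on reads.

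Methylation of the cytosine in a CpG dinucleotide is an epigenetic mark that is copied to the new strand at cell division, so both strands of a CpG usually carry the same state. Most CpGs of a mammalian genome are methylated, CpG islands at promoters are mostly not, and levels differ between tissues such as the liver, the metabolic organ of the newborn, and the lactating gland. Reduced representation bisulfite sequencing (RRBS) reads CpGs in short fragments cut by restriction enzymes, so a region rich in enzyme sites is read far more than its surroundings, and neighbouring CpGs are read in the same fragments. No annotation of the UMD3.1 build was used, so no gene or feature is named for the window.

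The window held very many calls for its size. In liver this follows in part from the choice, since the 2 sites come from positions with more than 10 reads in every calf. A call is 1 read of 1 CpG, and window calls per animal ranged from 7433 to 14800 in calves and from 13179 to 22677 in heifers. Of 17769 tiles of 150 kb on chromosomes 1 to 29 and X, only 16 to 198 held more calls in the same animal. The window held 10.2 to 82.6 times the calls of the median tile in calves and 26.5 to 46.7 times in heifers. Depth was concentrated in a core of 40 kb, the 8 consecutive 5 kb bins from 124.755 to 124.795 Mb with more than 400 calls in every heifer. This core was 26.7% of the length and took 74.1 to 95.3% of window calls in calves and 90.6 to 93.2% in heifers. Outside it no bin exceeded 334 calls in a heifer.

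**Figure D1:**
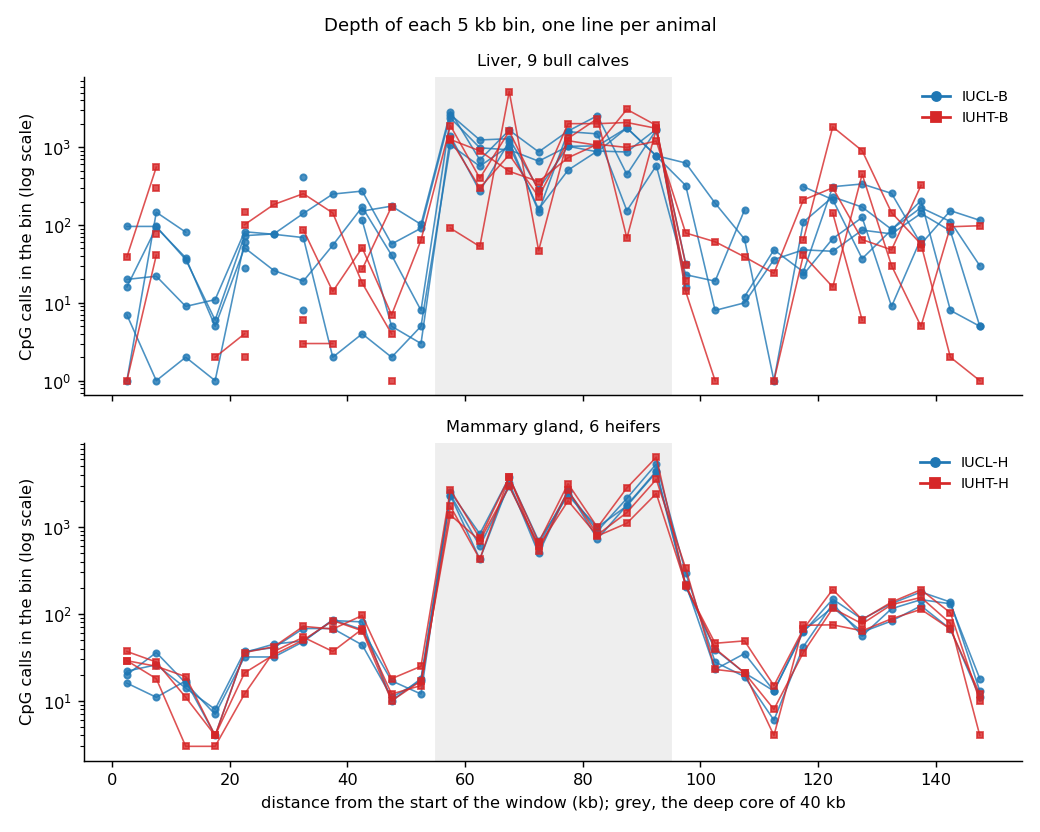
CpG calls in each 5 kb bin (log scale) against distance from the start of the window in kb, 1 line per animal, liver above and mammary gland below, with the core shaded. Heifer lines lie close together and are highest inside the core, while calf lines spread widely outside it.

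Depth was also concentrated on few positions, to a degree that varied more among calves than among heifers. A calf had 170 to 905 window positions and a heifer 1134 to 1473. The deepest 5 positions held 11.96 to 55.3% of the window calls of a calf (median 20.3%) and 21.9 to 28.8% of those of a heifer (median 26.7%). Calf IUHT-B 5 had the fewest positions, and 5 of them held 55.3% of its calls. Calves IUCL-B 4 and 5 stood apart in the whole methylome, with 3289592 and 5958861 positions against 307023 to 1052206 in the other 7 calves, and they also had the most window positions, 674 and 905.

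The share of all calls that fell in the window was higher in each IUHT-B calf than in any IUCL-B calf. Window calls per 1000000 calls were 418, 352, 461, 439 and 341 in IUCL-B calves 1 to 5. They were 469, 590, 935 and 1080 in IUHT-B calves 2 to 5, so the ranges of the 2 liver groups did not overlap. As a share of covered positions they did, at 152 to 350 per 1000000 in IUCL-B and 272 to 603 in IUHT-B. In how many other tiles the liver groups are apart in share of calls was not computed, so nothing is read from the gap between 461 and 469. Calves IUHT-B 3, 4 and 5 also had the fewest positions in the whole methylome, 431065, 537447 and 307023. In heifers window calls per 1000000 calls were 1148, 1094 and 914 (IUCL-H) and 1155, 1198 and 745 (IUHT-H), which overlapped. Averaged over animals the share was 565 ± 264 per 1000000 in liver (SD, n = 9) and 1042 ± 176 in mammary gland (SD, n = 6), a difference of −477 per 1000000. It is given as a description, since the choice of the sites required depth in every calf. The difference depended on counting every read. With the calls of a position capped at 20 it was −39.4 per 1000000, and as a share of covered positions it turned to 224 per 1000000 higher in liver.

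The methylation level of the window, methylated calls over all calls, was intermediate in both tissues. It was 72.4%, 63.9%, 67.1%, 73.1% and 79.99% in IUCL-B calves 1 to 5 and 67.7%, 77.8%, 66.2% and 59.7% in IUHT-B calves 2 to 5. The liver groups overlapped widely: IUCL-B averaged 71.3 ± 6.17% (SD, n = 5), and IUHT-B 67.8 ± 7.46% (SD, n = 4). Without calves IUCL-B 4 and 5 the liver difference of −3.47 points between group means became 0.021 points. The mean of the position percentages, in which each position counts once, was 72.5 to 81.5% in IUCL-B and 69.5 to 74.8% in IUHT-B.

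The mean window levels of liver and mammary gland were close. The means were 69.8 ± 6.58% (SD, n = 9) and 71.2 ± 1.95% (SD, n = 6), a difference of −1.46 points (two-sided exact permutation test, p = 0.62, adjusted p = 0.62). With calls capped at 20 per position liver was 3.91 points higher (exact p = 0.011), so the sign depended on the weight given to deep positions. Under the same cap the whole methylomes stood at 74.9 to 79.8% in calves and 73.0 to 76.5% in heifers. Whether the window's gap differs from that of the whole methylomes was not tested. Calves ranged from 59.7 to 79.99% and heifers from 68.7 to 74.0%. The window lay 3.31 ± 2.03 points below the level of the whole methylome in heifers and 8.33 ± 7.42 points below it in calves.

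**Figure D2:**
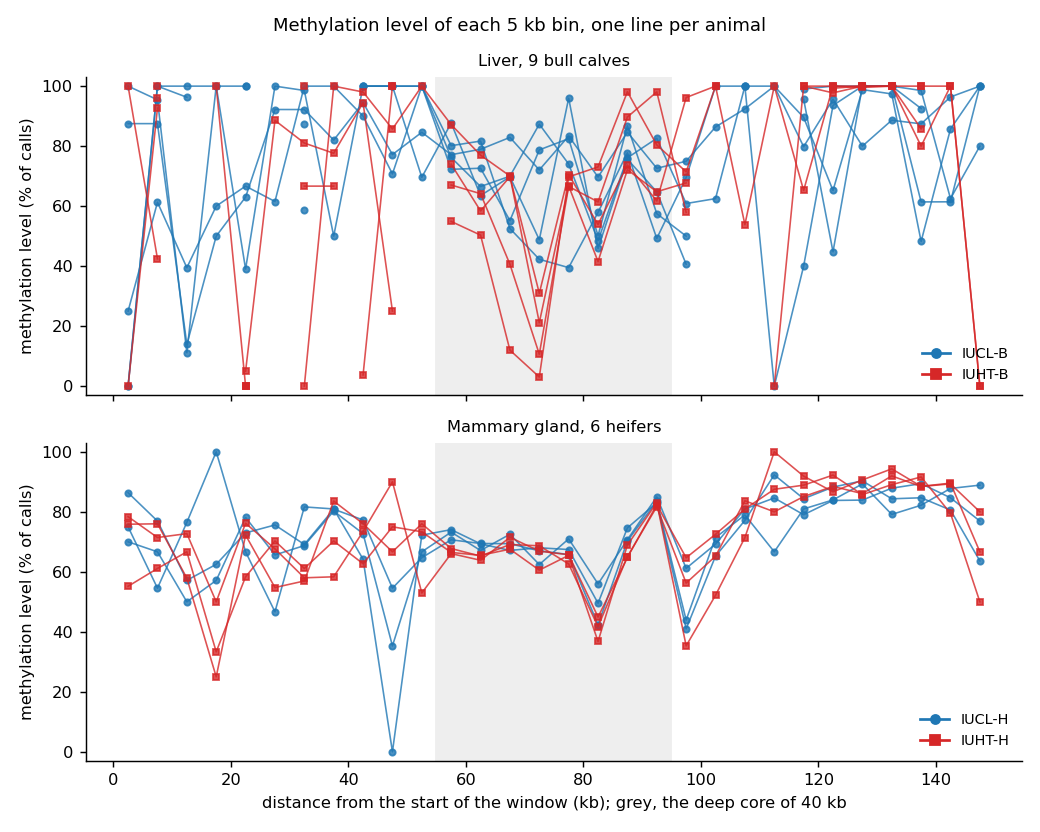
Methylation level (% of calls) of each 5 kb bin against distance from the start of the window in kb, 1 line per animal, liver above and mammary gland below, with the core shaded. Within the core, which was chosen on heifer depth, the levels of the 6 heifers lay 3.29 to 19.2 points apart in a bin. Those of the 9 calves lay 25.97 to 84.3 points apart.

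In each core bin the 6 heifers spanned a narrower range than the 9 calves. This is a description, since the core was chosen on heifer depth and a calf had as few as 47 calls in a core bin. A range also grows with the number of animals. Of the 10 bins with at least 100 calls in every heifer, the one from 124780000 to 124784999 had the lowest mean level, 45.2%. It read 42.3%, 49.5% and 56.0% in IUCL-H and 36.8%, 41.7% and 44.9% in IUHT-H. The bin from 124795000 to 124799999, just past the core, varied more, from 35.3 to 64.7%, and was lower still in heifers IUCL-H 2 and IUHT-H 1. The highest mean, 87.5%, lay outside the core from 124835000 to 124839999, and within the core it was 83.1% from 124790000 to 124794999. The hypermethylated liver site lies in the bin with the lowest mean. The lines of the calves crossed throughout.

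The site at 124.768 Mb, hypomethylated in IUHT-B, was read in all 15 animals. Its level was 89.5% (153 of 171 reads), 78.3% (18 of 23), 83.3% (20 of 24), 93.4% (57 of 61) and 70.8% (17 of 24) in IUCL-B calves 1 to 5. In IUHT-B calves 2 to 5 it was 35.3% (6 of 17), 57.1% (12 of 21), 50.0% (7 of 14) and 0.26% (4 of 1539). All 4 IUHT-B calves were below all 5 IUCL-B calves, and calf IUHT-B 5 held nearly all IUHT-B reads. The group means were 83.1% and 35.7%, a difference of −47.4 points, and −35.6 points without calf IUHT-B 5. Pooling reads, which gives that calf most of the weight, put the difference at −85.6 points.

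Its closest tested neighbour, 8 bp further at position 124768039, did not share the difference. There the level was 97.6%, 90% (18 of 20 reads), 86.4%, 100% and 91.7% in IUCL-B and 93.3%, 84.2%, 81.8% and 99.9% in IUHT-B. Calf IUHT-B 5 thus had 4 of 1539 reads methylated at the site and 1528 of 1530 at the neighbour. On the other side, 22 bp before the site at position 124768009, IUCL-B calves read 13.8%, 31.3%, 26.3%, 33.3% and 53.7% and IUHT-B calves 25.0%, 3.68%, 94.8% and 0.518%. The level of calf IUHT-B 4 there (256 of 270 reads) was the highest of the 9 and that of calf IUHT-B 5 (8 of 1545) the lowest, so heat stressed calves lay at both ends. A further 11 bp before, position 124767998 read 1.77% in calf IUHT-B 3 (6 of 339) and 98.8% in calf IUHT-B 4 (256 of 259).

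In the mammary gland the same site was intermediate and showed no such split. It read 75.8%, 73.8% and 71.9% in IUCL-H and 90.5%, 63.0% and 66.7% in IUHT-H, from 21 to 62 reads per heifer. The adjoining position 124768032, taken as the cytosine on the opposite strand, was deeper (170 to 299 reads). It read 73.5%, 71.0%, 72.6%, 76.7%, 73.6% and 70.0% in the 6 heifers in the same order. In calves that opposite cytosine had reads in only 3 IUCL-B calves, at most 4 each, all methylated, so the liver difference was measured on 1 strand. The neighbours kept their own levels in heifers too. Position 124768039 read 94.4 to 100% in IUCL-H and 92.3 to 92.9% in IUHT-H, and position 124768009 51.3 to 58.7%. At the first of these the groups did not overlap, as at 10.2% of all tested mammary positions.

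The site at 124.781 Mb, hypermethylated in IUHT-B, was read by 11 to 750 reads per calf. In IUCL-B calves 1 to 5 it was 0% (0 of 492), 0% (0 of 237), 0% (0 of 194), 10.7% (29 of 271) and 30.7% (46 of 150). In IUHT-B calves 2 to 5 it was 45.8% (127 of 277), 72.7% (8 of 11), 48.1% (155 of 322) and 41.6% (312 of 750). All IUHT-B levels were above all IUCL-B levels, and the 2 IUCL-B calves with methylated reads were numbers 4 and 5, the ones with the largest methylomes. The counts of 0 allow levels of up to 0.775%, 1.60% and 1.94% (upper 95% Wilson limits, which cover counting error only). The group means were 8.27% and 52.1%, a difference of 43.8 points, with 36.9 to 49.4 points when any 1 calf was left out.

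Here too the closest tested neighbour did not follow. Position 124780979, 23 bp before the site, was read at nearly the same depth in every calf. It was 22.4%, 1.27%, 65.5%, 41.3% and 62.3% in IUCL-B and 21.2%, 45.5%, 32.9% and 41.5% in IUHT-B, and the groups overlapped completely. Calf IUCL-B 3 had 127 of 194 reads methylated at the neighbour and 0 of 194 at the site, and calf IUHT-B 5 had 312 methylated reads at both, of 751 and 750. In heifers both were low. The site read 13.8%, 21.1% and 12.5% (IUCL-H) and 0%, 22.5% and 7.14% (IUHT-H), from 8 to 40 reads. The neighbour read 17.14 to 26.3% in IUCL-H and 6.67 to 17.11% in IUHT-H. These just did not overlap, as at 10.2% of all tested mammary positions. The opposite strand of the site, position 124781003, had no read in any calf and 17.4 to 32.6% in heifers.

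**Figure D3:**
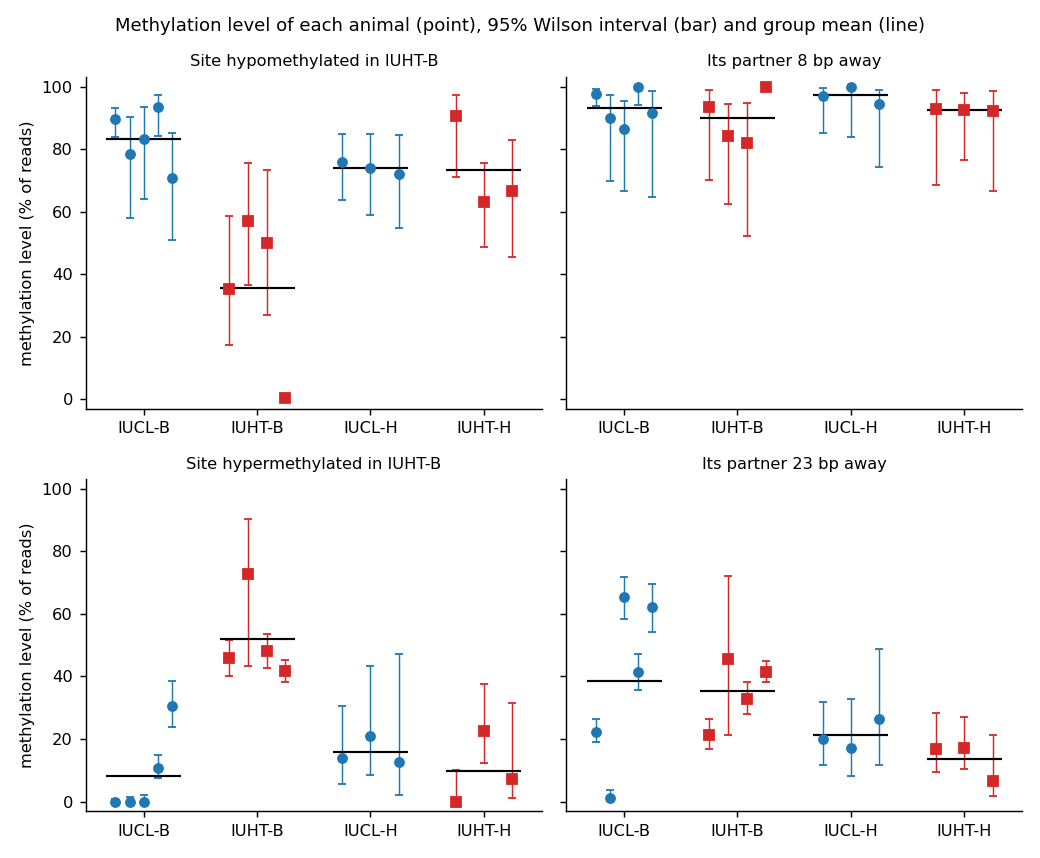
Methylation level (% of reads) of each animal at the 2 sites (left) and at the tested neighbour of each (right), by group, with bars for the 95% Wilson interval and a line for the group mean. The liver groups are apart at both sites, around 83.1% and 35.7% above and 8.27% and 52.1% below, and overlap at both neighbours.

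The surroundings of the 2 sites were thinly covered in liver. Within 1 kb of the first site 43 other positions were read in some animal, 39 of them in a calf but 4 in all calves, and within 1 kb of the second 33, of which 16 in a calf and 3 in all. Leaving out the site itself, the pooled level within 1 kb of the first site was 37.3 to 88.5% in the 5 IUCL-B calves (65.7 ± 19.7%, SD) and 5.32 to 96.3% in the 4 IUHT-B calves (53.5 ± 37.6%, SD). Around the second site it averaged 44.6 ± 29.6% (SD) over the 5 IUCL-B calves and 51.0 ± 17.6% (SD) over the 4 IUHT-B calves. Both pairs of groups overlapped, and the SD within a group was larger than the difference between groups. Heifers were even around the first site, at 77.9 ± 1.78% in IUCL-H and 76.6 ± 1.74% in IUHT-H (SD, n = 3 each). Around the second they were 63.4 ± 3.81% in IUCL-H (59.2 to 66.7%) and 51.9 ± 4.74% in IUHT-H (48.2 to 57.2%). These did not overlap, but with each position counted once they did, at 61.7 to 72.3% and 55.4 to 63.1%.

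Only 10 window positions had more than 10 reads in every calf, of 900 in the whole table, and all lay in the core. They formed 5 patches, so they are not 10 independent observations. By logistic regression with a cut-off of 15 points and q = 0.2 (Benjamini-Hochberg over all 900), 3 of the 10 were called, 1 higher and 2 lower in IUHT-B, where 33.1% of all tested liver positions were called (14.2% higher and 18.9% lower). Both sites that chose the window are among the 3, so nothing is read from that count. The calls of the calves of a group spread far beyond counting error. The median dispersion was 38.6 over the 10 positions and 32.1 over all 900, where binomial counts give 1. Fewer positions were called when that spread was counted. An F test scaled by the dispersion called 2 of the 10, against 6.33% of all tested positions. These were the 2 sites that chose the window, so nothing is read from this count either. With edgeR's quasi-likelihood test 0 of the 10 were called, against 0.222% of all. Its unadjusted p was under 0.05 at 2 of the 10, 1 of them a site that chose the window, and at 82 of all 900. The groups did not overlap at 2 of the 10, the sites that chose the window, against 3.78% of all tested positions. Allowing 10 or fewer reads in some calves (more than 10 in at least 3 calves of each group) gave 12 calls of 35, against 38.5% of all. The third call, position 124772168, was 66.3 ± 11.7% in IUCL-B and 24.1 ± 33.5% in IUHT-B, with 1 IUHT-B calf at 71.1%.

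At most of these positions calves spread more widely than heifers. The 2 sites that chose the window are set aside here, since their liver spread follows from the choice. Over the other 8 positions the difference between the highest and lowest calf had a median of 51.3 points. Among heifers it had a median of 15.9 points, and calves were wider at 6 of the 8. The exceptions were position 124756640, where calves spanned 6.67 points and heifers 11.4, and position 124772154, which had at most 3 reads in a heifer. Calves number 9 and heifers 6, and a range grows with the number of animals. Wider spread among calves was not particular to the window: the median dispersion over all tested positions was 32.1 in liver and 1.13 in mammary gland. At position 124784252 IUHT-B calves 2 to 5 read 15.5%, 26.8%, 25.5% and 94.0% and the heifers 12.3 to 29.9%.

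**Figure D4:**
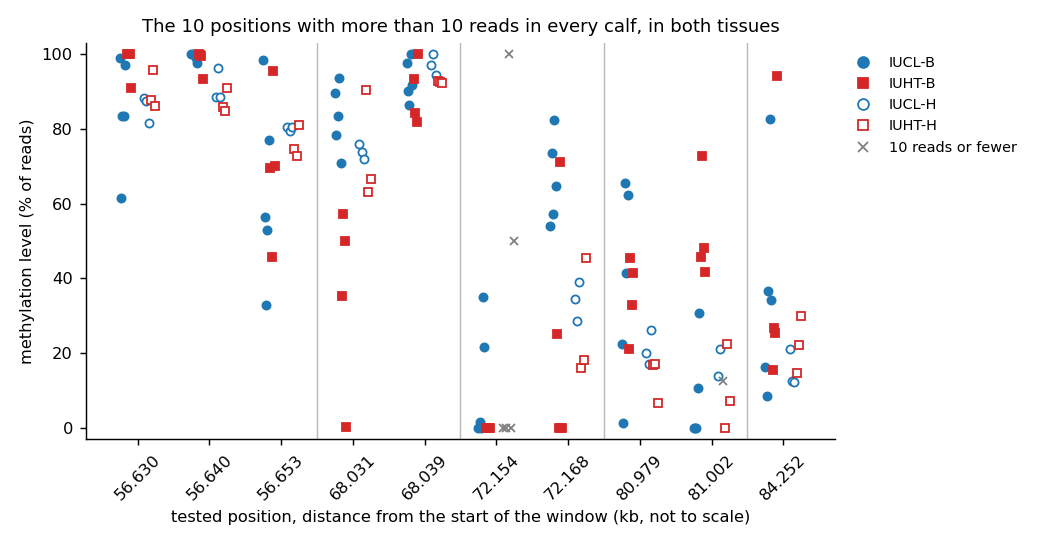
Methylation level (% of reads) of every animal at the 10 positions with more than 10 reads in every calf, ordered by distance from the start of the window in kb and divided into 5 patches, with filled points for calves and open points for heifers. At the 8 positions other than the sites calves spread by a median of 51.3 points and heifers by 15.9 points, and the groups of calves are apart at the 2 sites that chose the window.

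In 5 kb bins, 16 of the 30 bins were read in all 9 calves and the liver groups did not overlap in 2 of them, against 7.58% of all bins read in every calf. One of these lay in the core, between the 2 sites, from 124770000 to 124774999. It read 48.8%, 42.3%, 78.8%, 87.3% and 72.1% in IUCL-B calves 1 to 5 and 30.9%, 3.03%, 21.2% and 10.6% in IUHT-B calves 2 to 5. The other bin, from 124720000 to 124724999, had as few as 2 calls in a calf. In the core bin calf IUHT-B 5 had 47 calls and the other calves 149 to 871. With each position of that bin counted once the groups overlapped, calf IUHT-B 4 standing at 74.8% and calf IUCL-B 2 at 62.1%. Heifers read 60.6 to 68.7% in the same bin, with both groups overlapping. The bins of the sites themselves overlapped: from 124765000 to 124769999 IUCL-B calves were at 52.5 to 82.9% and IUHT-B calves at 11.99 to 70.04%, and from 124780000 to 124784999 at 45.9 to 69.7% and 41.5 to 73.1%.

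The mammary gland, which played no part in the choice of the window, had a slightly lower pooled level in IUHT-H. The window level was 72.0%, 72.6% and 74.0% in IUCL-H and 68.7%, 70.3% and 69.8% in IUHT-H, so the 3 IUHT-H heifers were below the 3 IUCL-H heifers. The means were 72.8 ± 1.03% and 69.6 ± 0.827% (SD, n = 3 each), a difference of −3.22 points (two-sided exact permutation test, p = 0.1, adjusted p = 0.15 over 3 tests), and 0.1 is the smallest p that 3 animals against 3 allow. Over all 150 kb tiles the heifer groups did not overlap in 6.8%, and in 2.81% with IUHT-H lower. Weighting every position alike ended the difference (0.182 points, exact p = 0.9), and set against the level of each whole methylome it was −1.997 points (exact p = 0.3).

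Most heifer calls lay in the core, so the window level was largely that of the core. There the pooled level was 71.97%, 72.7% and 73.7% in IUCL-H and 68.9%, 69.8% and 69.0% in IUHT-H. IUHT-H had the lower mean in 8 of the 8 core bins, against 73.1% of the 936 bins of 5 kb in the genome with more than 400 calls in every heifer. The groups did not overlap in 4 of the 8, all lower in IUHT-H, against 14.6% of those 936 (12.8% lower). Over the whole window they did not overlap in 9 of 30 bins, 6 with IUHT-H lower and 3 with IUHT-H higher, against 8.68% of all bins read in every heifer (4.1% lower). The 3 higher bins lay outside the core. In the bin from 124755000 to 124759999 IUCL-H read 70.7%, 74.1% and 73.2% and IUHT-H 66.5%, 67.8% and 66.1%. In the bin from 124785000 to 124789999 the values were 70.3%, 74.7% and 70.7% against 68.9%, 65.1% and 64.8%. Both the count and these gaps depended on weighting by reads. With every position of a bin counted once, IUHT-H had the lower mean in 5 of the 8 core bins and the groups did not overlap in 1, where IUHT-H was higher. That was the first of the bins just given, at 62.5 to 65.5% in IUCL-H and 65.7 to 68.1% in IUHT-H, and in the other the groups overlapped. Outside the core, where a heifer had 1162 to 1535 calls, the level was 72.0%, 71.1% and 77.3% in IUCL-H and 66.7%, 78.0% and 77.4% in IUHT-H. These groups overlapped (0.538 points between the means, exact p = 0.8), and whether the core and the rest differ in this contrast was not tested. Over the window, taking only positions read in all 6 heifers gave −3.46 points and leaving out the 3 deepest positions −3.10 points, but capping the calls of a position at 20 gave −1.20 points (exact p = 0.5).

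Single mammary positions showed little. Of 110 window positions with more than 10 reads in every heifer (of 18486 in all), 1 was called by logistic regression, in the lower direction, against 1.54% of all tested (0.427% higher and 1.11% lower). It was position 124775533, at 86.7%, 94.7% and 85.0% in IUCL-H and 76.9%, 59.1% and 64.3% in IUHT-H, from 14 to 26 reads, a pooled difference of −21.1 points (q = 0.13, Benjamini-Hochberg). With edgeR's quasi-likelihood test 0 of the 110 were called, and it called 0% of all tested, as did the F test. Its unadjusted p was under 0.05 at 2 of the 110 and at 831 of all 18486. The mean was lower in IUHT-H at 63 of the 110 and higher at 46, with a median absolute difference of 3.89 points. The groups did not overlap at 11 of the 110, 8 lower and 3 higher, against 10.2% of all tested positions.

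The deepest mammary positions were precise and differed little between groups. Position 124791178 had 697 to 1722 reads per heifer and stood at 93.2%, 93.1% and 92.9% in IUCL-H and 94.4%, 93.1% and 92.8% in IUHT-H. Position 124791191, 13 bp on and with 8954 reads in all, was 75.9%, 75.1% and 81.7% in IUCL-H and 74.5%, 73.5% and 73.9% in IUHT-H. Its groups did not overlap (−3.59 points between the means), heifer IUCL-H 3 lying farthest from the rest. Position 124791168, 10 bp before the first of these and with 7173 reads in all, was 89.5%, 87.9% and 87.3% in IUCL-H and 87.0%, 87.1% and 86.2% in IUHT-H, again without overlap (−1.45 points). Positions 124765068 and 124765102, next in depth, were 35.4 to 48.0% and 27.9 to 39.0%. The 4 other positions with the largest differences between group means (124765732, 124785624, 124756789 and 124778025) spanned −12.8 to 17.8 points and none was called.

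Neighbouring CpGs 2 to 40 bp apart were more often over 20 points apart in the window than in the whole methylome, in 9 of 9 calves and 5 of 6 heifers. The pairs that hold either of the 2 sites were left out here, since the sites were chosen on their liver levels. At 41 to 1000 bp the same held in 9 of 9 calves and 5 of 6 heifers, and for the strands of a CpG in 3 of 4 calves with such pairs and 3 of 6 heifers. For consecutive positions 2 to 40 bp apart, each with more than 10 reads in the same calf, the levels were over 20 points apart in 20 to 52.1% of pairs per calf, from 15 to 130 pairs. Over the whole methylome of the same calves it was 17.7 to 19.0%. In heifers the window gave 32.1 to 45.6% and the whole methylome 28.7 to 33.5%. Pairs with one member at 90% or above and the other at 10% or below made up 6.67 to 27.4% of the window's pairs in calves and 0 to 2.75% in heifers. Over the whole methylome such pairs were 10.4 to 16.5% in calves and 0.684 to 0.812% in heifers. The window's share was below the methylome's own in 3 of 9 calves and 4 of 6 heifers, so opposite states were not regularly commoner in the window.

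A second feature set the liver apart, and it held over the whole methylome. In a calf's whole methylome 92.1 to 98.8% of positions with more than 10 reads were in 1 state, at 90% or above or at 10% or below. In the core this share was 60.8 to 80.4%, and in the window outside the core 83.9 to 100%. Heifers had 31.9 to 39.0% in the whole methylome and 18.1 to 28.1% in the core. The core was therefore richer in intermediate levels than the whole methylome in each of the 15 animals. The 2 sites that chose the window are among the 28 to 189 such core positions of a calf and were not left out here. In the window outside the core a heifer had only 2 to 10 positions with more than 10 reads, 0 to 30% of them in 1 state. By other limits, of the 110 tested mammary positions 67 averaged between 20 and 80%, 40 above 80% and 3 below 20%. Of these 110, 108 lay in the core.

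The strands of a CpG were seldom both read deeply in liver. No calf of IUCL-B 1 to 3, IUHT-B 3 or IUHT-B 5 had a window CpG with more than 10 reads on each strand. In heifers 22 to 33 CpGs did, and their strands differed by a median of 6.74 to 11.9 points. Calves IUCL-B 4 and 5 had 18 each, with medians of 23.4 and 2.47 points. Calf IUHT-B 2 had 4, with a median of 48.8 points, and calf IUHT-B 4 had 1, whose strands were 100 points apart. How far liver strands agree at the 2 sites was not measurable at this depth.

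The spacing of CpGs recurred within the core. Taking 3 positions within 40 bp of each other, each read in at least 4 heifers, the core held 322 distinct spacings over 572 positions. Of these 75 occurred 4 times or more and the commonest 16 times. In the rest of the window there were 364 spacings over 438 positions, of which 10 occurred 4 times or more and the commonest 5 times. At a cut-off of 2 times the contrast was smaller, 52.2% of the spacings in the core and 37.6% in the rest. Positions on opposite strands of the same CpGs count separately here, the core has more positions per kb, and this comparison was made after the spacing had been seen. The hypomethylated liver site begins a spacing of 0, +8 and +23 bp that was found 14 times, 12 of them in the core.

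Among well-read copies of a few spacings, the order of the mammary levels over the 3 offsets recurred. These spacings were chosen after their values had been seen, so the recurrence is a description. The commonest spacing of the core, 0, +15 and +25 bp, was not examined in this way. For 0, +8 and +23 bp, 4 copies had more than 10 reads in every heifer at all 3 positions: those starting at 124766682, 124766683, 124768032 and 124775567, the first pair being the strands of the same CpGs. Their medians over heifers were 66.8%, 73.9%, 73.0% and 77.8% at the first position, 93.1%, 91.7%, 93.2% and 94.0% at the middle and 80.9%, 81.1%, 82.4% and 78.3% at the last. The middle was highest and the first lowest in all 4, or in 3 of 3 with that pair counted once. For 0, +10 and +23 bp, which was found 15 times and only in the core, 7 copies were as deep, and the middle position was the highest and the last the lowest in 6 of them. A pair of these, starting at 124756765 and 124756766, are the strands of the same CpGs, and counted once they leave 5 of 6. The levels themselves varied more here, from 45.6 to 95.8% at the middle and from 56.1 to 80.3% at the last. The exception in order, starting at 124756801, read 81.1%, 45.6% and 77.7%.

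**Figure D5:**
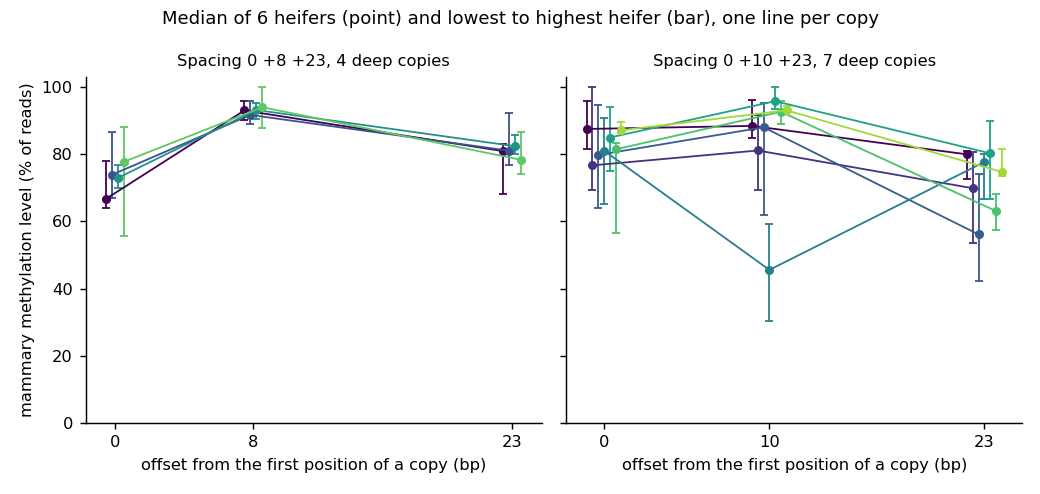
Mammary methylation level (% of reads) against offset in bp from the first position of each copy of the spacings 0, +8, +23 (left, 4 copies) and 0, +10, +23 (right, 7 copies), with the median of 6 heifers as a point and the lowest to highest heifer as a bar. On the left all copies peak at the middle offset, between 91.7 and 94.0%, and on the right 6 of 7 do, each panel counting the strands of 1 set of CpGs as separate copies.

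In liver 4 copies of these spacings had a read in each of the 9 calves at all 3 positions, leaving out the copy that starts at the site at 124.768 Mb, whose first level was used in choosing the window. The middle had the highest median over calves in all 4, though a calf had as few as 1 read at a position. At the copy starting at 124756765 the middle led by little, 86.7% against 86.2% at the first position. For 0, +10 and +23 bp the last was lowest in 2 of 3, as at the copy starting at 124756630 (97.1%, 99.7% and 69.4%). The 1 copy of 0, +8 and +23 bp, starting at 124766682, read 95%, 99.7% and 89.7%, so its first position was not the lowest. Single calves spread widely about these medians. At the first position of the copy starting at 124766682 the calves ranged from 56.3 to 100%, and at its last from 2.24 to 100%. At the site at 124.768 Mb they ranged from 0.26 to 93.4%. Whether reads of one copy had been placed at another was not tested.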

How the data were processed

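RRBS was run by the authors on bull calf liver and heifer mammary gland after MspI and TaqαI digestion. The 15 methylomes analysed here are of 9 calves and 6 heifers. Per the study's methods, a heat stressed calf whose reads did not align had been left out by the authors. Those methods also count more IUCL-H heifers than have a methylome here. The labels name FastQC without a version, Trim Galore 0.4.4, Bismark 0.17.0 and the UMD3.1 build. The study's methods give other versions of Trim Galore and Bismark. Per the file contents, each deposited file lists a position, its percent methylation and its counts of methylated and unmethylated reads. No column gives the strand, and adjoining positions were taken as the strands of a CpG without a sequence to check this. The percent equals the ratio of the deposited counts in every line.

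The window was every position of chromosome 2 from 124700000 to 124850000, and the sites were 124768031 (hypomethylated in IUHT-B) and 124781002 (hypermethylated). These members, the lists and the tests were chosen with earlier results of these data known. Named positions were the sites, every window position with more than 10 reads in every calf, up to 5 positions within 1 kb of each site read in the most calves, and, of positions with more than 10 reads in every heifer, the 5 with the largest group difference and the 5 with the most reads. The core, the spacings and their copies were chosen after their values were seen.

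Levels were methylated over all calls. Position tests were logistic regressions over the whole table of a tissue (more than 10 reads in every animal, 15 points, Benjamini-Hochberg q of at most 0.2). Dispersion was Pearson's chi-square over its degrees of freedom. Exact permutation tests of animals between groups, two-sided, served for 3 window values (SciPy 1.17.1), and the one on the share of calls is given without p because the choice of sites required depth in liver. Alternatives were an overdispersion F test, edgeR 4.0.16, other depth minimums and weights, merged strands, and leaving out animals. Reads are not independent molecules, so Wilson intervals cover counting error only. Total calls ranged from 10484911 to 38221835 per animal.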

Additional observations from a re-analysis of the deposited data

Results flagged for a closer look

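Of 33 comparisons within groups of 4 or 5 calves, 4 had 1 calf far from the others of its group. Chance gives about 1 in 20 for independent, normally distributed values. These comparisons share reads, include the chosen sites and some hold values at 100%, so 4 of 33 cannot be set against it. At position 124784252 calf IUHT-B 5 read 94.0% where the other IUHT-B calves read 15.5 to 26.8%. At positions 124756630 and 124756640 the same calf read 90.9% and 93.3%, below others at 100% and at 99.5 to 100%, each from 1 unmethylated read (10 of 11 and 14 of 15 reads methylated). Within 1 kb of the site at 124.781 Mb, the site left out, calf IUHT-B 3 read 77.1% where the others read 39.6 to 44.9%, from as few as 35 calls.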

How the results depend on the processing

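The main liver count rests on 10 tested positions on 5 patches and the mammary values on 3 heifers a group, and what made a value change was not tested. The main liver count was 3 calls of 10, against 33.1% of all tested positions. The F test gave 2 of 10, the sites that chose the window (6.33% of all), and edgeR 0 of 10 (0.222%). A minimum above 20 reads gave 0 of 1 (27.7% of all) and above 5 reads 5 of 18 (36.2%). Without calves IUCL-B 4 and 5 it was 5 of 13 (37.4% of all). A minimum of more than 10 reads in 3 or more calves per group gave 12 of 35 (38.5%). Leaving out 1 calf gave 3 to 6 calls, against 32.6 to 36.8% of all tested (5 of 10 without IUHT-B 4, and 6 of 21 without IUHT-B 5). The main mammary count was 1 call of 110, against 1.54% of all tested positions. With edgeR and the F test it was 0 of 110 (0% of all). A minimum above 20 reads gave 0 of 72 (1.19% of all) and above 5 reads 4 of 170, all lower (1.30%). Leaving out 1 heifer gave 1 to 3 calls, against 1.39 to 2.40% of all. There were 3 of 110 without IUCL-H 1, 3 of 111 without IUHT-H 1 (1 of them higher) and 2 of 126 without IUHT-H 3. Without IUCL-H 2 the lower call was lost and the 1 call was higher in IUHT-H. The mammary window difference of −3.22 points turned to 0.182 points with every position weighted alike and, in a setting added after seeing the data, to 0.538 points outside the core. It was −1.20 points with calls capped at 20 (exact p = 0.5) and stayed negative in the 6 other settings, and between −3.65 and −2.64 points with 1 heifer left out (exact p = 0.2, the smallest 2 against 3 allow). With every position of a bin weighted alike, also added after seeing the data, core bins with the lower IUHT-H mean went from 8 to 5 and those without overlap and IUHT-H lower from 4 to 0. The tissue difference of −1.46 points turned to 0.823 points with positions weighted alike and to 3.91 points with calls capped at 20, and lay between −2.73 and −0.198 points with 1 animal left out. The tissue difference in share of calls was −39.4 per 1000000 calls with calls capped at 20, turned to 224 per 1000000 as a share of positions, and lay between −542 and −446 per 1000000 with 1 animal left out. The liver window difference lay between −6.77 and −0.757 points with 1 calf left out.

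The deviations of same-numbered calves were weakly correlated (0.057, 0.057, 0.083 and −0.064 over 910 positions). Calves of different numbers gave −0.098 to 0.051, so all but the last of the same-numbered values lay above these. Whether the numbers pair the calves cannot be told from correlations this weak. With the number as a block, the liver window difference was −3.19 points (SD over 4 pairs 13.5). In that setting 4 of 10 liver positions were called, against 32.4% of all tested. The heifers carry no shared numbers, and no paired analysis was possible because their numbers here follow accession order.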
